A study of Danio rerio with 6 samples.

Results

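The genes of collagen chains were followed in mpeg1+ cells of adult zebrafish skin, collected by flow cytometry. Genes were taken by name, as every symbol made of "col", a type number, "a" and a chain number, with at least 1 CPM (counts scaled to a common library total, in CPM) in 2 or more libraries. Of 56 genes with such a name, 48 passed this minimum, out of 20382 of the 32520 listed genes that did so. The name rule also took in col4a3bpa and col4a3bpb, which are annotated as binding proteins of a type IV chain and are not chains themselves. Collagen chains were therefore 46 of the 48 members. The rule did not use differences between groups. Just inside the minimum lay col9a1b, with 1.60 and 1.1 CPM in its highest libraries, and just outside lay col9a2, with 1.15 and 0.60 CPM. Without the csf1rDM libraries col28a1a and col27a1b would not have reached the minimum, and without the control GFP+DsRed- libraries col27a1b, col8a1b and col9a1b would not. The other chains below the minimum were col2a1a, col4a3, col8a1a, col24a1, col28a2b and both genes named col19a1.

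Collagens are secreted proteins of 3 chains wound into a triple helix, and they form the main scaffold of the extracellular matrix. Fibrillar collagens (types I, II, V, XI and XXVII among the members) give tissues such as the dermis, fish scales, cartilage and bone their strength. Type IV collagen builds the network of basement membranes, type XVII crosses the membrane of basal keratinocytes and type VII anchors the basement membrane to the dermis. Fibroblasts, bone-forming osteoblasts and keratinocytes are the usual sources of these chains in skin.

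All fish were untreated adults of 3 months that carried the transgenes mpeg1-EGFP, Kdrl:Cre and act2b:loxP-STOP-loxP-DsRedexpress. GFP under mpeg1 marks macrophages and also metaphocytes, epithelium-derived cells of the skin that resemble macrophages, and Cre under the kdrl promoter leaves a permanent DsRed mark in endothelium and in the blood cells that arise from it. The 3 groups, with 2 libraries in each, were GFP+DsRed- cells of control fish, the GFP+DsRed+ fraction of control fish, and the GFP+DsRed- fraction of csf1rDM fish (csf1ra j4e1/j4e1; csf1rb sa1503/sa1503), which are homozygous mutants for both zebrafish genes of the colony stimulating factor 1 receptor. A macrophage derived from tissue that never expressed kdrl would also be GFP+DsRed-, and no source used here says whether the libraries of a group came from different fish, so that p-values measure the spread between these libraries. Below, values are in the order control GFP+DsRed- replicates 1 and 2, control GFP+DsRed+ replicates 3 and 1, and csf1rDM GFP+DsRed- replicates 2 and 3.

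The libraries held between 4024253 and 14816042 reads assigned to genes, the csf1rDM libraries being the shallowest, and 1 read was worth between 0.0675 and 0.2485 CPM. Transcripts of csf1ra measured 102 and 86.9 CPM in the GFP+DsRed- controls, 1120 and 1080 CPM in the GFP+DsRed+ controls, and 1.40 and 2.25 CPM in csf1rDM cells, while csf1rb measured 0.55, 0.60, 47.7, 34.1, 0 and 0 CPM. Fixed marker genes of leukocytes and macrophages summed to between 1555 and 2072 CPM in the 4 GFP+DsRed- libraries and to 11078 and 10466 CPM in the GFP+DsRed+ libraries, with none of the 10 genes at 0. Markers of basal keratinocytes, at between 9847 and 27838 CPM, and some markers of osteoblasts, dermal fibroblasts and pigment cells were read in all 6 libraries. Those of xanthophores, yellow pigment cells, summed to only 3.40 and 2.75 CPM in csf1rDM cells, with some of the genes at 0. Whether these transcripts came from other cell types or from the sorted cells was not tested. In such bulk samples fewer cells of a type and less RNA per cell cannot be told apart.

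Collagen transcripts took up the largest share of the library in control GFP+DsRed- cells. The 46 chains summed to 24895 and 21633 CPM there, to 10567 and 11144 CPM in control GFP+DsRed+ cells, and to 8349 and 4998 CPM in csf1rDM cells. As shares of the deposited signal these were 2.49% and 2.16%, 1.06% and 1.11%, and 0.835% and 0.500%. The sums of the 3 groups did not overlap. The 3 type I chains (col1a1a, col1a1b and col1a2) contributed 16299, 14488, 7320, 7344, 4413 and 1637 CPM, and the 2 type X chains 3935, 3466, 1602, 1892, 845 and 358 CPM. Together these 5 genes made up between 81.3% and 84.4% of the collagen sum in the 4 control libraries, but 63.0% and 39.9% in csf1rDM cells. The order of the groups was different for the remaining 41 chains, which summed to 4661 and 3679 CPM, 1645 and 1908 CPM, and 3091 and 3003 CPM: here csf1rDM cells lay between the control groups.

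**Figure D1:**
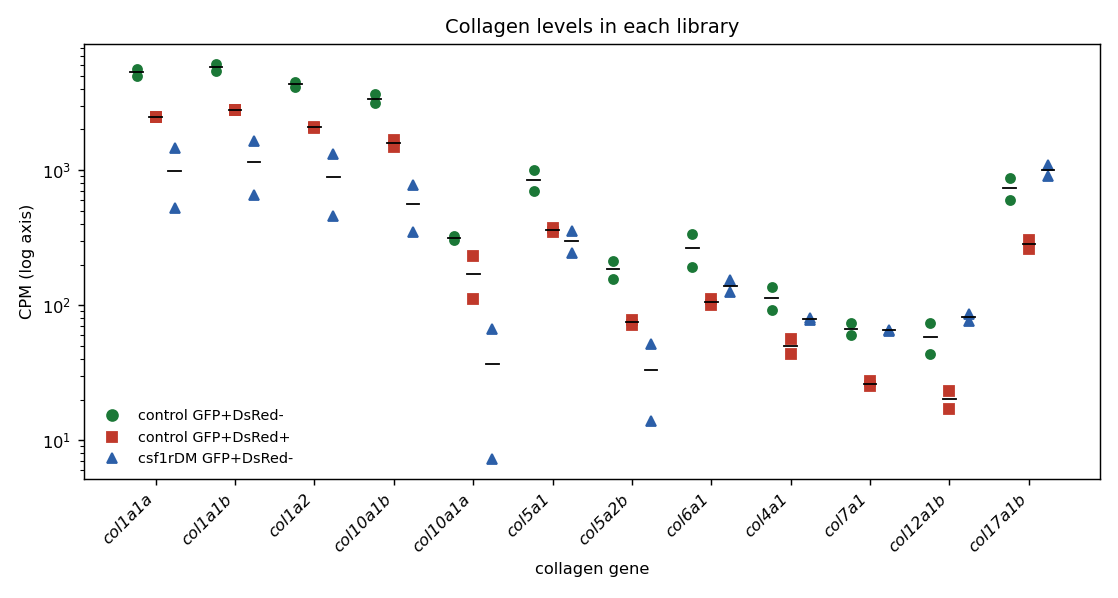
CPM (log axis) of 12 collagen genes, 1 point per library, with circles for control GFP+DsRed-, squares for control GFP+DsRed+ and triangles for csf1rDM GFP+DsRed- cells, and a black line at the mean of each group of 2. The type I and type X chains and col5a2b step down from control GFP+DsRed- to csf1rDM cells, while col17a1b, col12a1b and col7a1 are lowest in the GFP+DsRed+ libraries.

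By group means, 25 of the 46 chains were highest in control GFP+DsRed- and lowest in control GFP+DsRed+ cells, an order that 23% of all genes tested had. In 8 of these the libraries of all 3 groups were apart from each other, beside 5.60% of all genes. Another 10 chains were highest in control GFP+DsRed- and lowest in csf1rDM cells (20% of all genes), with all groups apart in 7 of them (6.47%). A further 8 chains were highest in csf1rDM and lowest in control GFP+DsRed+ cells (20.1% of all genes), with all groups apart in 3 (6.93%), namely col17a1b, col12a1b and col28a1a. In all, 35 of 46 chains had their highest mean in control GFP+DsRed- cells, by orders that 23% and 20% of all genes had. Lowest in control GFP+DsRed+ cells were 33 chains, by orders that 23% and 20.1% of all genes had. Among the 35 were col8a1b and col9a1b, which reached the minimum only through the control GFP+DsRed- libraries. Among the 8 highest in csf1rDM cells were col28a1a and col27a1b, which would not have reached it without the csf1rDM libraries.

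The first comparison asked how collagen transcripts differ between cells with and without the mark of blood origin in control skin. Collagen genes of 8 families were lower in GFP+DsRed+ cells: 18 of the 48 members, 17 of them chains, fell, beside 10.8% of all genes tested that were called lower and 25.4% called in either direction. The 17 chains had a median log2 fold change of -1.03, with values between -1.26 and -0.70. Fold changes are differences of log2(CPM + 1) and understate the change of low genes. No member was called higher, beside 14.6% of all genes, and at an unadjusted p below 0.05 limma gave 0 higher and 26 lower members. Over all 48 members the median log2 fold change was -0.84, beside -0.03 over all genes, and 43 were fitted below 0, beside 51.7% of all genes. No called member passed a log2 fold change of 2 in size, beside 6.02% of all genes, 4.98% higher and 1.04% lower. The libraries of 40 members lay wholly lower in GFP+DsRed+ cells, beside 47.5% of all genes, and those of col9a1a alone lay wholly higher, beside 24.2%. The 40 included col8a1b and col9a1b, which reached the minimum only through the control GFP+DsRed- libraries.

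Some chains of the dermal-epidermal junction were among those that fell. Type VII collagen, col7a1, measured 73.5 and 60.1 CPM in control GFP+DsRed- and 25 and 27.5 CPM in control GFP+DsRed+ cells, a log2 fold change of -1.10 ± 0.16 (SE, limma, adjusted p = 0.00361). Type XVII collagen, col17a1b, the transmembrane chain of hemidesmosomes, measured 599 and 868 CPM against 263 and 306 CPM, a log2 fold change of -1.13 ± 0.24 (adjusted p = 0.0152). The libraries of both genes were apart, and every GFP+DsRed+ library was the lower one. The other gene of each type was low and did not pass the test. The type VII gene col7a1l had a log2 fold change of -0.70 (limma, adjusted p = 0.364). The type XVII gene col17a1a was fitted above 0, at 0.16 (adjusted p = 0.897). Of the 5 type IV chains, col4a1 (136 and 91.4 against 43.7 and 55.7 CPM) and col4a2 (68.3 and 47.1 against 23.6 and 27.2 CPM) fell, by 0.95 and 0.92 on the log2 scale with adjusted p of 0.019 and 0.017. Those genes lie next to each other in the annotation and encode the chains of the most widespread type IV trimer. Values of col4a5 and col4a6 were lower in both GFP+DsRed+ libraries without passing the test (adjusted p = 0.121 and 0.104). The remaining type IV gene, col4a4, was scattered within groups, at 9.94 and 1.75, 33.5 and 6.60, and 20.7 and 14.9 CPM.

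Type VI collagen, which forms beaded filaments around cells, also fell. Its alpha 1 chain, col6a1, measured 337 and 191 CPM against 101 and 111 CPM, a log2 fold change of -1.04 ± 0.25 (adjusted p = 0.0236). Its alpha 2 chain, col6a2, measured 271 and 165 CPM against 83.1 and 93.3 CPM, a log2 fold change of -1.04 ± 0.22 (adjusted p = 0.0145). Both genes named col6a3 fell, the one read more often (ENSDARG00000077139) with 839 and 550 CPM against 223 and 301 CPM, a log2 fold change of -1.17 ± 0.26 (adjusted p = 0.0167). The first col6a3 gene had between 4.34 and 4.51 times the CPM of the second (ENSDARG00000095915) in every library, and how reads were split between them is uncertain. In each of these genes the GFP+DsRed+ libraries lay below both GFP+DsRed- libraries, and col6a4a (108 and 54.6 against 36.2 and 49.7 CPM) did too but did not pass the test (adjusted p = 0.179).

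Among fibrillar chains 4 of 13 fell, and all 13 were fitted below 0. Type V collagen sets the diameter of type I fibrils, and its alpha 1 chain, col5a1, measured 995 and 697 CPM against 346 and 371 CPM, a log2 fold change of -0.999 ± 0.23 (adjusted p = 0.0207). One alpha 2 chain, col5a2a, fell by 0.83 on the log2 scale (adjusted p = 0.0153). The chains col2a1b and col11a1b fell by 1.15 and 0.84 (limma, adjusted p = 0.0141 and 0.0439). The type I chains did not pass the test, although their libraries were apart: col1a1a measured 5652 and 4940 CPM against 2481 and 2477 CPM, a log2 fold change of -0.88 ± 0.43 (95% interval -1.89 to 0.14, adjusted p = 0.186). The shared estimate of spread for these genes includes the csf1rDM libraries, which differed from each other by 2.78 times for col1a1a. In a fit of the 4 control libraries and no others, the type I chains and col10a1b passed, among 24 members called lower.

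FACIT collagens attach to the surface of fibrils, and 2 of 9 fell. One was col12a1b, at 73.5 and 43.6 CPM against 17.1 and 23 CPM (log2 fold change -1.26 ± 0.26, adjusted p = 0.0138), and the other was col14a1b, at 51.7 and 42.4 CPM against 22.1 and 16.9 CPM (-1.03 ± 0.21, adjusted p = 0.012). The multiplexins col15a1b and col18a1a, chains of basement membrane zones, fell by 0.89 and 0.70, and col8a2, a short chain network collagen, fell by 0.88. Of the 2 members that are not chains, col4a3bpa fell by 1.00 (adjusted p = 0.0349) and col4a3bpb did not pass the test.

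These calls changed when single libraries were left out. Such a fit leaves 1 library in a group and less to estimate the spread from, so that a lost call need not rest on that library. Without control GFP+DsRed- replicate 1 or without control GFP+DsRed+ replicate 3 only 2 of the 18 calls remained, and without control GFP+DsRed- replicate 2 there were 11 calls, 10 of them shared. Of the members called, only col7a1 passed in all 16 alternatives. Scaling also set how the background split: by library totals alone 2371 genes were called higher and 3259 lower, against 2982 and 2198 with TMM scaling, and the median of all genes moved from -0.03 to -0.21, while the chains' median moved from -0.84 to -1.05. In this comparison the sums of several cell type marker lists were lower as well. Xanthophore (yellow pigment cell) markers went from 496 and 438 CPM to 33.3 and 27.2 CPM, with 8 of 8 called lower, and melanophore markers from 31.7 and 39.6 to 12.7 and 11.8 CPM, with 1 of 5 tested called lower. Iridophore markers were higher in sum, from 61.3 and 42.7 to 130 and 129 CPM (2 of 6 higher, 1 lower), but most of the list was not. Both GFP+DsRed+ libraries were higher for gpnmb and for tfec, which went from 2.05 and 0.8 to 89.4 and 80.3 CPM. They were lower for pnp4a, ltk, alx4a and alx4b, and 4 of the 6 genes were fitted below 0 (median log2 fold change -0.566). Basal keratinocyte markers went from 22110 and 27838 CPM to 9847 and 14305 CPM, all 7 fitted below 0 and 2 called lower. Superficial keratinocyte markers went from 5360 and 7161 to 1982 and 3415 CPM (2 of 8 lower), and osteoblast markers from 260 and 244 to 119 and 149 CPM (4 of 8 tested lower, 1 higher). Dermal fibroblast markers went from 434 and 273 to 249 and 263 CPM (2 of 10 lower, 1 higher). Metaphocyte markers went from 3798 and 3420 to 1082 and 1253 CPM, with 5 of 6 lower and cd4-1 higher, and the leukocyte markers rose, 10 of 10. None of the genes in these keratinocyte, fibroblast, metaphocyte and leukocyte lists was at 0 in any library, and of the osteoblast genes only bglapl was, in 1 csf1rDM library. The part of these cell types in the collagen values was not tested.

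**Figure D2:**
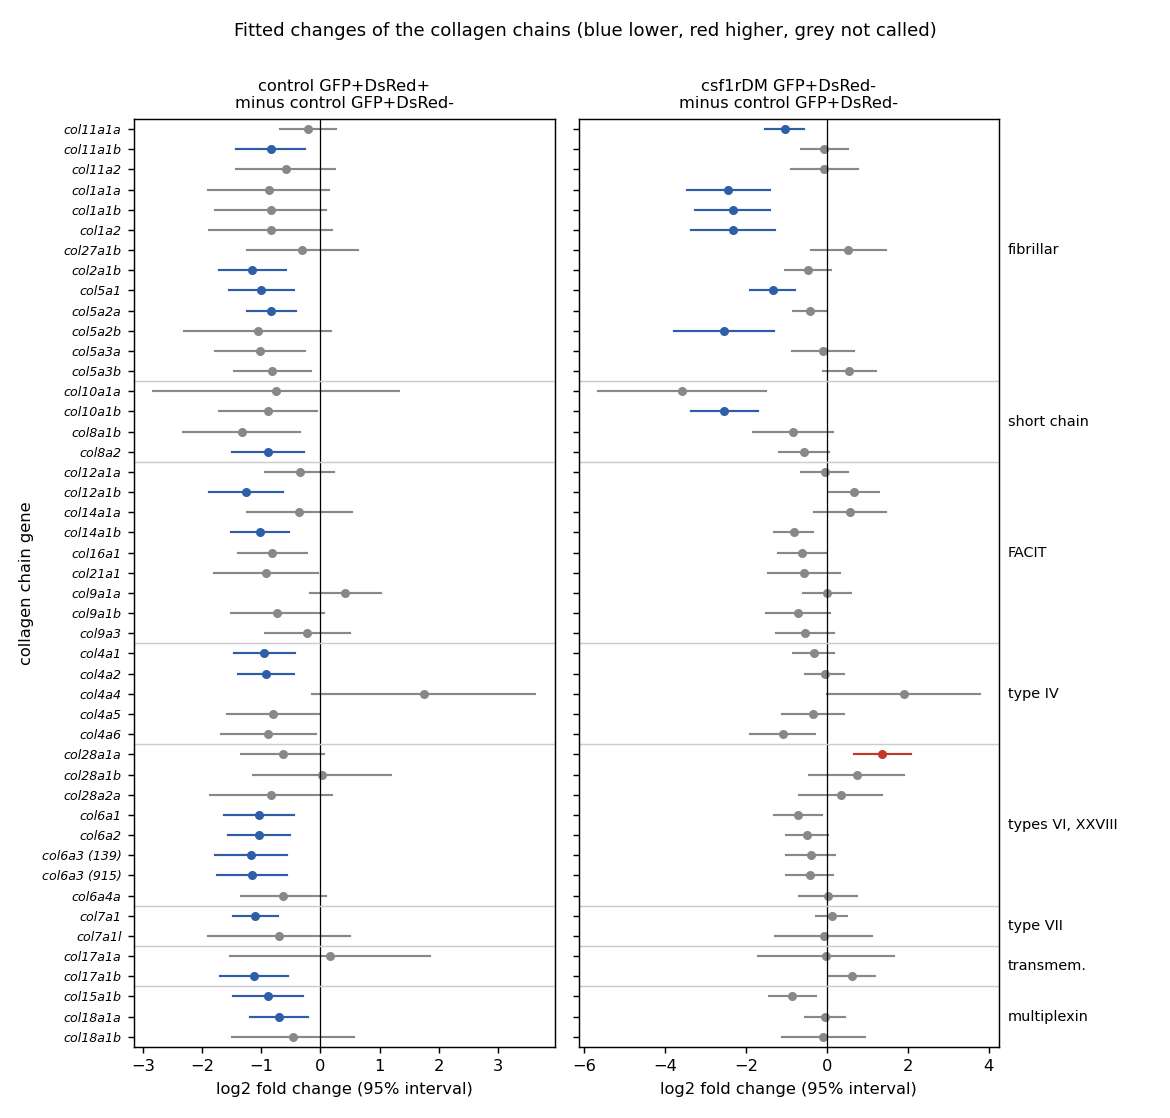
Log2 fold changes with 95% intervals of the 46 collagen chains, grouped by family, in control GFP+DsRed+ minus control GFP+DsRed- cells (left) and csf1rDM minus control GFP+DsRed- cells (right), with blue for chains called lower, red for higher and grey for those that did not pass. On the left the 17 blue points lie between -1.26 and -0.70, while on the right the type I and X chains and col5a2b lie below -2, and most others lie closer to 0.

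The second comparison asked what loss of both receptor genes changes within GFP+DsRed- cells. Mainly type I collagen, chains of type V collagen and type X collagen were lower: 7 of 48 members fell, beside 3.27% of all genes, and col28a1a rose, beside 3.24% (6.51% in either direction). Of the genes that fell, 5 had a log2 fold change below -2, beside 1.01% of all genes (1.56% beyond 2 in either direction). These were all 3 type I chains, col5a2b and col10a1b. The median over the 48 members was -0.34, beside -0.05 over all genes, and 35 of the 46 chains were fitted below 0 (37 when scaled by library totals alone, 30 with median-ratio factors), beside 53.6% of all genes. Over all genes 661 were called higher and 666 lower, but 462 and 1041 by library totals alone. At an unadjusted p below 0.05 limma gave 14 lower and 3 higher members. The libraries of 24 members lay wholly lower in csf1rDM cells, beside 38.7% of all genes, and those of 4 wholly higher, beside 19.3%. The 24 included col8a1b and col9a1b and the 4 included col28a1a, each of which reached the minimum only through the group where it was higher. This comparison has the control GFP+DsRed- libraries in common with the first, so that the values of both move with those libraries.

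The type I chains fell together. For col1a1a, csf1rDM cells measured 1461 and 526 CPM against 5652 and 4940 CPM in control cells, a mean 5.33 times lower and a log2 fold change of -2.44 ± 0.43 (limma, adjusted p = 0.0264). Its duplicate col1a1b measured 1635 and 650 CPM against 6134 and 5446 CPM (-2.33 ± 0.40, adjusted p = 0.0243), and col1a2 measured 1317 and 461 CPM against 4513 and 4102 CPM (-2.31 ± 0.44, adjusted p = 0.0324). In all 3 genes both csf1rDM libraries lay below every control library, GFP+DsRed+ included. The GFP+DsRed+ libraries measured 2784 and 2783 CPM for col1a1b and 2056 and 2083 CPM for col1a2. These close values enter the shared estimate of spread, while the csf1rDM libraries were 2.86 times apart for col1a2. How reads common to col1a1a and col1a1b were assigned is not given in the sources used here, so that their separate levels are uncertain.

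Of the 5 chains of type V collagen, which forms mixed fibrils with type I, 2 fell, and of the 3 of type XI 1 fell. The gene col5a1 measured 356 and 245 CPM against 995 and 697 CPM (-1.34 ± 0.23, adjusted p = 0.0253). The alpha 2 chain col5a2b measured 51.8 and 13.9 CPM against 213 and 156 CPM, a log2 fold change of -2.56 ± 0.52 (adjusted p = 0.0381). In the GFP+DsRed+ controls it measured 71.3 and 78.2 CPM. Its duplicate col5a2a measured 98.6 and 115 CPM against 181 and 139 CPM and did not pass the test (-0.42 ± 0.18, adjusted p = 0.184). A minor fibrillar chain, col11a1a, measured 9.50 and 8.70 CPM against 21.7 and 22.4 CPM, a log2 fold change of -1.05 ± 0.20 (adjusted p = 0.0335). Libraries of both groups were apart for each of these 4 genes. The other chains of these types did not pass the test, with log2 fold changes of -0.10 for col5a3a, 0.55 for col5a3b, -0.06 for col11a1b and -0.07 for col11a2, and their libraries overlapped. Type VI chains did not pass either. In csf1rDM cells col6a1 measured 124 and 153 CPM (-0.72 ± 0.25, 95% interval -1.32 to -0.13, adjusted p = 0.125). There col6a2 measured 128 and 142 CPM (-0.495 ± 0.22, adjusted p = 0.207) and the first col6a3 gene 394 and 539 CPM (-0.41 ± 0.26, adjusted p = 0.353). Both csf1rDM libraries lay below the GFP+DsRed- controls in these genes, while those of col6a4a overlapped.

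Type X collagen marks hypertrophic cartilage in mammals, and in zebrafish col10a1a is also expressed by osteoblasts. The gene col10a1b measured 779 and 351 CPM in csf1rDM against 3634 and 3140 CPM in control cells, a mean 6.00 times lower and a log2 fold change of -2.54 ± 0.35 (adjusted p = 0.0132). The gene col10a1a measured 66.4 and 7.25 CPM, the latter from 29 reads, against 302 and 326 CPM. With a mean 8.52 times lower it had the largest fitted difference of any member (-3.59 ± 0.88, 95% interval -5.67 to -1.51), but the csf1rDM libraries were 9.17 times apart and it did not pass the test (adjusted p = 0.0588).

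Chains of the epidermis and its basement membrane did not pass the test in this comparison, and they lay on both sides of 0. The hemidesmosome chain col17a1b measured 1083 and 906 CPM in csf1rDM against 599 and 868 CPM in control cells (0.61 ± 0.24, 95% interval 0.04 to 1.18, adjusted p = 0.167), and both csf1rDM libraries lay above the controls. Type VII collagen, col7a1, measured 65.3 and 64.6 CPM, within the range of 73.5 and 60.1 CPM in control cells (0.12 ± 0.16, 95% interval -0.27 to 0.50). For col4a2, with 46.7 and 51.7 CPM against 68.3 and 47.1 CPM, the difference was -0.05 (95% interval -0.54 to 0.43). Higher in both csf1rDM libraries, without passing, was col4a4, at 20.7 and 14.9 CPM against 9.94 and 1.75 CPM (1.89 ± 0.80, limma, adjusted p = 0.187). Lower in both csf1rDM libraries, without passing, were col4a6 (4.95 and 9.70 against 15.6 and 20.1 CPM, -1.09 with a 95% interval of -1.89 to -0.29, adjusted p = 0.0992), col15a1b (6.75 and 7.50 against 18.6 and 12.3 CPM, -0.85 with a 95% interval of -1.44 to -0.27, adjusted p = 0.0852) and col4a1 (80.8 and 78.0 against 136 and 91.4 CPM, -0.33, adjusted p = 0.364). The gene that rose, col28a1a, encodes a type XXVIII chain and was read rarely: 3.75 and 4.75 CPM, 19 reads in each csf1rDM library, against 1.45 and 0.90 CPM, 16 and 9 reads (1.37 ± 0.30, adjusted p = 0.0435). It entered the test only through the csf1rDM libraries, where it is high.

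These calls too changed when single libraries were left out, with the same limit. Without either control GFP+DsRed- library 0 members passed, without control GFP+DsRed+ replicate 3 or 1 there were 1 and 2, without csf1rDM replicate 3 there were 5, and in a fit of only the groups compared 3. For col1a1a the log2 fold change ran from -3.18 without csf1rDM replicate 2 to -1.69 without csf1rDM replicate 3. For col10a1b it lay between -3.12 and -1.96 under all 15 alternatives, 12 of which passed the threshold. Fewer of the 15 passed for the other members that fell: 10 for col1a1b, 8 each for col1a1a, col1a2, col5a1 and col5a2b, and 6 for col11a1a. The rise of col28a1a passed in 3 of 14 alternatives and in none that left out a library. Marker sums beside this result were those of xanthophores, at 496 and 438 CPM in control against 3.40 and 2.75 CPM in csf1rDM cells, 8 of 8 called lower, with xdh, slc2a15a and bscl2l at 0 in both csf1rDM libraries and pax7a at 0 in one. Osteoblast markers summed to 260 and 244 against 140 and 115 CPM, with 2 of 8 tested called lower, and dermal fibroblast markers to 434 and 273 against 193 and 266 CPM, with 1 of 10 called lower. Keratinocyte markers had no call, with basal sums of 22110 and 27838 against 23522 and 20947 CPM. Melanophore markers summed to 31.7 and 39.6 against 10.3 and 12.7 CPM (2 of 5 tested lower), iridophore markers to 61.3 and 42.7 against 21.5 and 31.1 CPM (2 of 6 lower), and skeletal muscle markers to 8.94 and 4.50 against 21.8 and 23.2 CPM (2 of 3 tested higher). The part of these cells in the collagen values was not tested. With all libraries thinned to the depth of the shallowest, 7 of the 8 calls remained.

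**Figure D3:**
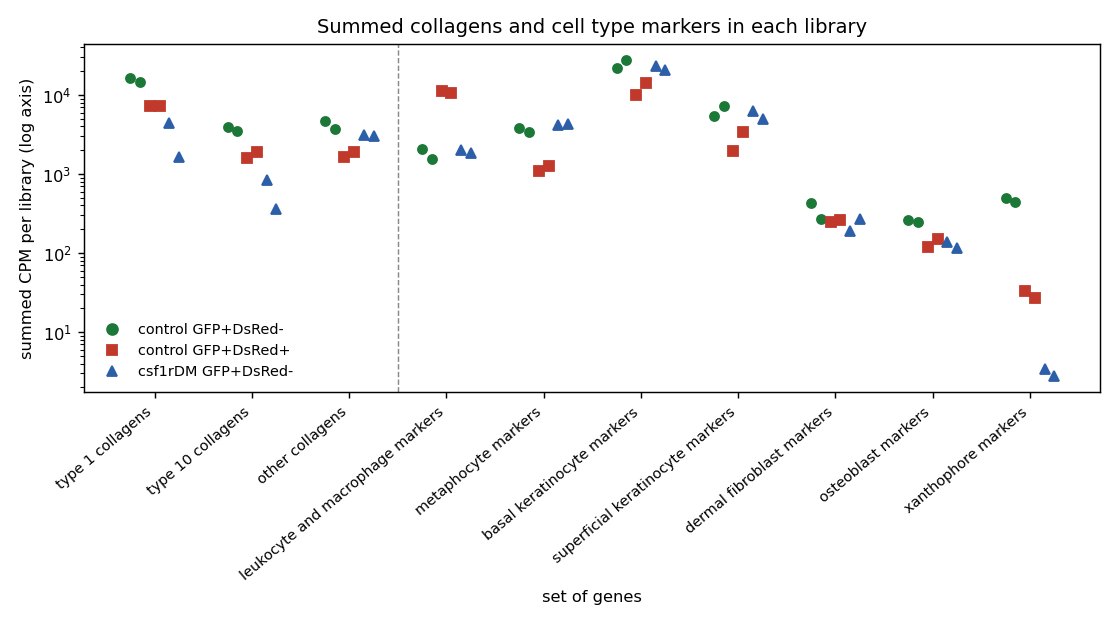
Summed CPM per library (log axis) of the type I chains, type X chains and all other chains (left of the dashed line) and of fixed cell type marker lists (right), 1 point per library, with the symbols of the groups as named in the key. Type I and X collagens and xanthophore markers are lowest in the csf1rDM libraries, while the other chains and the keratinocyte markers are lowest in the GFP+DsRed+ libraries.

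The csf1rDM libraries differed from each other in the type I and X chains in 1 direction. All 5 of these genes were higher in replicate 2 than in replicate 3, by 2.22 to 9.17 times, while the same 5 genes differed between the control GFP+DsRed- libraries by 1.08 to 1.16 times. For the other 41 chains the median ratio between the libraries of a group was 1.33 in csf1rDM, 1.48 in control GFP+DsRed- and 1.22 in control GFP+DsRed+ cells. Among those chains 17 were higher in csf1rDM replicate 2 and 23 in replicate 3, with col9a1b left out because it was at 0 in replicate 3. In 8 of them the csf1rDM libraries were over 2 times apart, as in 8 for control GFP+DsRed- and 6 for control GFP+DsRed+ cells, the widest being col17a1a, with 0.20 and 4.50 CPM.

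The remaining comparison, which has libraries in common with both others, set DsRed-marked control cells against csf1rDM cells. Members were called in both directions here, and their 14 calls were a share near that of all genes. Higher in GFP+DsRed+ cells were 6 of 48 members, beside 18.3% of all genes, and lower were 8, beside 14.1% (32.4% in either direction). Beyond a log2 fold change of 2 lay 1 higher member, col10a1a, and 1 lower, col28a1a, beside 5.64% and 2.44% of all genes. The libraries of 9 members lay wholly higher, beside 34.4% of all genes, and those of 22 wholly lower, beside 32.7%. The 22 included col28a1a and col27a1b, which would not have reached the minimum without the csf1rDM libraries. The 6 were col1a1a, col1a1b, col1a2, col10a1a, col10a1b and col11a1a, with log2 fold changes between 0.84 and 2.84. For col10a1b the libraries measured 1491 and 1662 CPM against 779 and 351 CPM (1.65 ± 0.35, adjusted p = 0.012), and for col10a1a 112 and 230 CPM against 66.4 and 7.25 CPM (2.84 ± 0.88, adjusted p = 0.0459). The 8 were col12a1b, col17a1b, col7a1, col28a1a, col5a3b, col4a2, col11a1b and col4a3bpa. In col12a1b the libraries measured 17.1 and 23 CPM against 86.1 and 76.5 CPM (-1.92 ± 0.26, adjusted p = 0.00201), in col17a1b 263 and 306 against 1083 and 906 CPM (-1.74 ± 0.24, adjusted p = 0.00218), and in col7a1 25 and 27.5 against 65.3 and 64.6 CPM (-1.21 ± 0.16, adjusted p = 0.00188). Those libraries were apart, and these 3 chains passed in every alternative run for them. For col28a1a, which entered the test only through its csf1rDM values, the libraries measured 0.55 and 0.10 CPM, from 8 reads and 1 read, against 3.75 and 4.75 CPM (-2.01 ± 0.30, adjusted p = 0.00269), with fits between -3.06 and -0.94 under the alternatives. Without control GFP+DsRed+ replicate 3 or 1 there were 4 and 7 calls in place of 14, all lower, and without either control GFP+DsRed- library there were 9.

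Ratios between chains of one library do not depend on the library total. CPM is not per length, so that only the change of a ratio between libraries is of use, not its size. Some pairs of chains that share a trimer kept a narrow range of ratios and others did not. The ratio of col1a1a to col1a2 lay between 1.11 and 1.25 in all 6 libraries, although each gene spanned a wide range, and that of col1a1b to col1a2 lay between 1.24 and 1.41. The ratio of col4a1 to col4a2 lay between 1.51 and 2.05, and that of col6a1 to col6a2 between 0.968 and 1.24. Wider ranges were those of col6a3 to col6a1, between 2.22 and 3.53, of col4a5 to col4a6, between 1.06 and 2.39, and of col5a1 to col5a2a, between 2.13 and 5.49. Duplicated chains did not all keep theirs: col5a2b to col5a2a was 1.18 and 1.12 in control GFP+DsRed-, 0.998 and 0.946 in control GFP+DsRed+, and 0.526 and 0.121 in csf1rDM cells. The ratio of col10a1b to col10a1a was between 7.22 and 13.4 in 5 libraries and 48.4 in csf1rDM replicate 3. The ratio of col1a1a to col17a1b was 9.44 and 5.69 in control GFP+DsRed- and 9.45 and 8.09 in control GFP+DsRed+ cells, which overlap, but 1.35 and 0.581 in csf1rDM cells, below all 4 control libraries. These ratios were chosen with the levels known and carry no test.

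**Figure D4:**
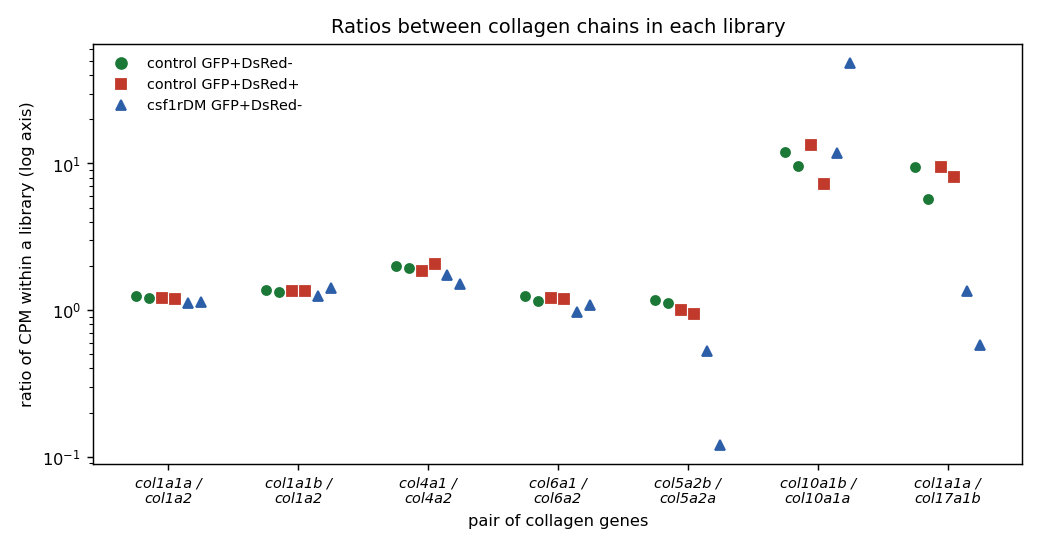
Ratio of the CPM of 7 pairs of collagen genes within each library (log axis), with the symbols of the groups as named in the key. The first 4 pairs (col1a1a and col1a2, col1a1b and col1a2, col4a1 and col4a2, col6a1 and col6a2) span narrow ranges, while col5a2b to col5a2a and col1a1a to col17a1b drop in both csf1rDM libraries.

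Genes that make, secrete, cross-link or bind collagens were taken from 7 lists of 113 genes, of which 97 were tested. In GFP+DsRed+ against GFP+DsRed- control cells 36 of them fell and 5 rose, beside 10.8% and 14.6% of all genes. Propeptide cleavage, the step that lets procollagen form fibrils, had 7 of 10 genes lower, among them the proteinases bmp1a (-1.08, adjusted p = 0.00825) and bmp1b (-1.22, adjusted p = 0.01), while pcolce2a rose from a low level (0.65 and 0.20 against 2.2 CPM in both). Procollagen folding and modification had 7 of 19 lower, led by serpinh1a, the collagen chaperone Hsp47, at 97.8 and 71.7 CPM against 30.5 and 32.7 CPM (-1.17 ± 0.21, adjusted p = 0.00759), with the lysyl hydroxylase plod1a higher; plod1a and pcolce2a are named after their values were seen. Basement membrane partners had 9 of 17 lower and 0 higher, led by agrn (agrin, -1.30, adjusted p = 0.00536) and the laminin chain lamc1 (-1.18, adjusted p = 0.00739). Collagen receptors had 7 of 14 lower, led by the integrin chain itga1 (-1.18, adjusted p = 0.00418) and the receptor kinase ddr1 (-1.07, adjusted p = 0.00511), and itgb1b.1 higher (1.64, adjusted p = 0.00198). Fibril-associated proteins had 5 of 22 lower, led by biglycan, bgna (-1.12, adjusted p = 0.00614), and 2 higher, tgfbi (2.77, adjusted p = 0.000886) and the fibronectin gene fn1a (1.41, adjusted p = 0.00422), both of which bind collagen. Cross-linking had 1 of 8 lower, the lysyl oxidase loxa, and procollagen export 0 of 7 called. Without control GFP+DsRed- replicate 1 or 2 the 41 calls became 14 and 23, and without control GFP+DsRed+ replicate 3 or 1 they became 8 and 24.

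In csf1rDM against control GFP+DsRed- cells 11 of the 97 fell and 2 rose, beside 3.27% and 3.24% of all genes. Among fibril-associated proteins 3 of 22 fell and 1 rose, with a median log2 fold change of 0.04. Biglycan, bgna, measured 28.4 and 28.3 CPM against 149 and 101 CPM (-1.93 ± 0.19, adjusted p = 0.00425), and sparc (osteonectin), which binds collagen in bone and skin, 238 and 139 CPM against 777 and 696 CPM (-1.86 ± 0.26, adjusted p = 0.0135). The enhancer of propeptide cleavage pcolcea measured 17.9 and 20.1 CPM against 71.6 and 49.9 CPM (-1.46 ± 0.20, adjusted p = 0.0125), and loxa 6.15 and 9.95 CPM against 60.6 and 30.1 CPM (-2.16 ± 0.37, adjusted p = 0.0245). The libraries of these genes did not overlap. Also lower were bmp1b, loxl2b, lum, serpinh1a, itga1, itgb1a and nid2b. Higher were the prolyl hydroxylase p4ha2 (89.5 and 114 CPM against 62.9 and 39.4 CPM, 1.16, adjusted p = 0.0427) and the thrombospondin thbs1b (1.1, adjusted p = 0.0131). In place of 13 there was 1 call without either control GFP+DsRed- library, 7 without either control GFP+DsRed+ library, and without csf1rDM replicate 3 also 7. In GFP+DsRed+ against csf1rDM cells 12 partners were higher, led by tgfbi, and 24 lower, beside 18.3% and 14.1% of all genes, the lower ones led by thbs1b (-1.79, adjusted p = 0.000293). Without control GFP+DsRed+ replicate 3 or 1 these 36 calls became 14 and 21.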

How the data were processed

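RNA of sorted adult skin cells was sequenced from SoLo libraries. The authors aligned reads to zebrafish GRCz11 (STAR 2.5.4b), counted them per gene (HTSeq 0.11.0) and tested genes with edgeR. The deposited signal is a gene count scaled by the authors to about 20000000 per library and rounded up. Per-library values were divided by their column total to give CPM. Reads were recovered from the steps of the low values for depth, floors and thinning only (at least 99.893% of values). In most libraries the deposited values did not pass a check for whole steps, so that no count test was made. The edgeR and DESeq2 alternatives were therefore not run here, and limma was the main test as planned.

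Genes with at least 1 CPM in 2 or more libraries were fitted as log2(CPM + 1) with TMM factors by limma-trend (limma 3.58.1, R 4.3.3), 1 coefficient per group over all 6 libraries. Two-sided p-values were Benjamini-Hochberg adjusted over 20382 genes, and a gene was called at an adjusted p below 0.05. Errors are standard errors. The lists and members were chosen with earlier results of these data known. Any chain could be named. Values in all libraries were given for the 10 chains with the highest mean CPM and for those called beyond a log2 fold change of 2. Groups described by type were given with the values of some libraries. At most 4 called genes were named per partner list, by adjusted p. Alternatives changed the scaling, pseudocount, filter, samples fitted, depth, replicate block and single libraries. One partner gene that this rule takes is not reported here by name. Floors of 3 reads cover counting error only.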

Additional observations from a re-analysis of the deposited data

How the results depend on the processing

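Counts of collagen members called moved by more than 1.5 times under few settings other than leaving out a library. In GFP+DsRed+ against GFP+DsRed- control cells (18 calls) leaving out 1 library gave 2 to 25 calls. In csf1rDM against control GFP+DsRed- cells (8 calls) there was 1 call with no filter on low values, 3 in a fit of only the groups compared, and 0 to 8 without 1 library. In GFP+DsRed+ against csf1rDM cells (14 calls) there were 8 with no filter and 4 to 16 without 1 library. Partner genes had 8 to 44 calls without 1 library in place of 41 in the first comparison, 1 to 14 in place of 13 in the second, where no filter and a fit of only the groups compared each gave 8, and 14 to 35 in place of 36 in the remaining one. The mean collagen level of control GFP+DsRed+ cells, 10856 CPM, became 11588 with median-ratio factors and 11590 when CPM was scaled by TMM factors. The cause of these changes was not tested.

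Libraries with the same replicate number did not deviate together (r = -0.42 for number 1, 0.03 for number 2 and 0.02 for number 3), so that the numbers were not taken as pairs. With the replicate block the members called were 6, 0 and 14, the partners called 15, 0 and 25, and the log2 fold change of col10a1a between control groups turned from -0.75 to 0.49. Crossed pairs of the 4 control libraries as a block, chosen after seeing the data, gave 36 calls, 35 of them lower. Leaving out the 2 binding protein genes and scaling CPM by TMM factors were also chosen after seeing the data.

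Of the 18, 8 and 14 members called in the 3 comparisons, 5, 7 and 6 were no longer past the threshold with no filter, and 12, 8 and 3 with the block. With 2 libraries per group no outlier could be tested. 1 read was worth up to 0.2485 CPM, so that 3 reads came to 0.7455 CPM in the shallowest library, csf1rDM replicate 3. In control GFP+DsRed+ replicate 1 col28a1a, at 0.10 CPM from 1 read, lay below the floor of 0.2979 CPM. In control GFP+DsRed+ replicate 3, at 0.55 CPM from 8 reads, it lay above the floor of 0.2025 CPM. The planned edgeR and DESeq2 alternatives were not run.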
